A study of Mus musculus with 31 samples.

Results

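Chemokines are small secreted proteins that bind G protein-coupled receptors and steer leukocytes along a gradient. 10 chemokine ligand genes that microglia are described as making (Ccl2, Ccl3, Ccl4, Ccl5, Ccl6, Ccl9, Ccl12, Cxcl13, Cxcl14 and Cxcl16) were taken by gene name from count tables of 55401 genes, and all 10 were found in every table. RNA was sequenced from CD11b+ cells, acutely isolated from whole brain with magnetic beads against a myeloid surface integrin, and from temporo-occipital cortex of 13-month-old mice on a C57Bl/6J background. APP/PS1 mice (A+) carry a single transgene under the mouse prion protein promoter that encodes chimeric mouse/human APP with the Swedish mutations and human PS1 lacking exon 9, and were compared with mice without it (A-). The other allele was a CRISPR/Cas9 knock-in of the P522R variant of PLCγ2, a phospholipase that acts downstream of microglial surface receptors, either absent (Pwt/wt or WT) or homozygous (Pki/ki or KI).

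Female CD11b+ libraries came from 7 A-/Pwt/wt, 4 A+/Pwt/wt and 4 A+/Pki/ki mice. Male CD11b+ libraries came from 3 WT and 4 KI mice, none of which carried APP/PS1. Cortex libraries, all from females, came from 4 A+/Pwt/wt mice, 4 A+/Pki/ki mice and 1 A-/Pwt/wt mouse. No female A-/Pki/ki and no male APP/PS1 group was among the 31 libraries, so the KI effect without amyloid was seen in males alone and with amyloid in females alone.

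Total counts ran from 16229831 to 25118180 in the 22 CD11b+ libraries and from 25226544 to 43129427 in the 9 cortex libraries. Homeostatic microglial genes were abundant in each CD11b+ group, with summed levels of 12870 to 29289 CPM (counts scaled to the same library size, per 1000000 counts) for a list of 12 genes, against 445 to 984 CPM in cortex. Oligodendrocyte transcripts were also high in the CD11b+ libraries, with a summed level of 6954 to 74356 CPM for 10 genes, and lymphocyte genes were low, with 11.5 to 33.1 CPM for 16 genes. Cst7, a cystatin gene known to rise in microglia near amyloid, had 534 to 919 CPM in the 8 female APP/PS1 CD11b+ libraries and 9.35 to 31.0 CPM in the 7 A-/Pwt/wt libraries, as labelled. The knock-in changes 1 codon, so the Plcg2 level (126 to 249 CPM over the CD11b+ libraries) does not check that label. 1 number, mouse 236, is given both to an A-/Pwt/wt CD11b+ library and to an A+/Pwt/wt cortex library, which cannot be the same animal by genotype. A tag in the column names was b3 for all A-/Pwt/wt and b2 for all APP/PS1 libraries of the female CD11b+ table, so that tag and the transgene cannot be told apart there.

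In the brain, microglia and border macrophages are a major source of the CC chemokines that draw monocytes and T cells, and Ccl3 and Ccl4 are inducible within minutes of cell stress or receptor stimulation. The CX3CR1 receptor on microglia, by contrast, reads a neuronal ligand, CX3CL1. Of the 10 ligands, CCL6 and CCL9 act on CCR1, and CCL2 and CCL12 on CCR2. CXCL13 binds CXCR5 on B cells, CXCL16 binds CXCR6 and is made as a transmembrane protein that sheddases release, and CXCL14 is made constitutively by several epithelial and neural cell types.

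8 of the 10 genes lie on chromosome 11, and 5 of these, from Ccl5 through Ccl9, Ccl6 and Ccl3 to Ccl4, fill 139 kb (chr11:83525778-83664683, GRCm38). Ccl2 and Ccl12 span 67.8 kb at chr11:82035571-82103400, Cxcl16 at chr11:70453983-70459984, Cxcl13 at chr5:95956951-95961068 and Cxcl14 at chr13:56288643-56296551. Exons of Cxcl16 overlap those of Zmynd15 on the opposite strand, and because reads were counted without strand their reads cannot be told apart there. No exon of the other 9 genes overlapped another gene's exon on either strand.

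Promoter sequences were present for 6 of the 10 genes in the RefSeq table for GRCm38.p6, and 4 are shown for the neighbours Ccl6 and Ccl9, of which Ccl6 alone passed for A+/Pwt/wt over A-/Pwt/wt cells, and for Ccl3 and Cxcl14, which passed the test in different comparisons. Each runs 5′ to 3′ over the 250 bases before the RefSeq start, on the minus strand, at chr11:83593088-83593337 for Ccl6, chr11:83578637-83578886 for Ccl9, chr11:83649379-83649628 for Ccl3 and chr13:56296552-56296801 for Cxcl14. Capitals mark the longest run shared by Ccl6 and Ccl9, the GAGGAA core (read on the other strand) in Ccl3, and each CG dinucleotide in Cxcl14.
Ccl6: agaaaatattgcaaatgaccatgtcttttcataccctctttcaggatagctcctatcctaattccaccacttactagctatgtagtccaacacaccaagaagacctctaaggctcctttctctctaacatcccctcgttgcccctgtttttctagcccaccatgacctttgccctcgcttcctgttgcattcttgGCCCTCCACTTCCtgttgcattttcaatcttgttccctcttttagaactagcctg
Ccl9: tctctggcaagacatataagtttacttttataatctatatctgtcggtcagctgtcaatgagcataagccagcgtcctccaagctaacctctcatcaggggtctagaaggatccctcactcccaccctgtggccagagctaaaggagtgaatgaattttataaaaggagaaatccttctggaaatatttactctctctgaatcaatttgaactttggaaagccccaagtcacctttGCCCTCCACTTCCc
Ccl3: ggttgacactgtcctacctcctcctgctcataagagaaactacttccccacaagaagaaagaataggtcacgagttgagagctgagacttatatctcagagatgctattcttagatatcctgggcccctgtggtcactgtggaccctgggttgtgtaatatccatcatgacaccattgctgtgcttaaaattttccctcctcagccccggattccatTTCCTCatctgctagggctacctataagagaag
Cxcl14: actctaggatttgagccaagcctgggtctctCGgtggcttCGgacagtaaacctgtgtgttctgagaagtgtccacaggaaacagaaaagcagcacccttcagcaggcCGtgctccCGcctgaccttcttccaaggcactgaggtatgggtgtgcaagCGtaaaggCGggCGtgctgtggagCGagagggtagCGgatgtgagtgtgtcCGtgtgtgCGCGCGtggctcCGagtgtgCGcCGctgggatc

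Ccl6 and Ccl9 shared a run of 13 bases, which began 55 bases before the start of Ccl6 and 14 bases before that of Ccl9, whereas the longest runs in the other 14 pairs of the 6 promoters were 6 to 9 bases. Cxcl14 had the most CG-rich window, with 16 CG dinucleotides and 59.6% GC, against 1 or 2 CG dinucleotides in the other 5 and a median of 6 over all 32851 promoters. Both strands were searched for 4 motifs. GAGGAA, a core of the sites of the myeloid factor PU.1, was in the windows of Ccl3 and Ccl12 and in 23.3% of all promoters. TGANTCA, an AP-1-like site, was in that of Ccl9 and in 6.75% of all promoters. An NF-kB-like site, GGG and CC with 5 bases of any kind between them, was in those of Ccl9 and Cxcl13 and in 45.8% of all promoters, and TATAAA was in those of Ccl9, Ccl12 and Cxcl13 and in 12.4%. The Ccl6 and Cxcl14 windows held none of these letters, which says nothing of the factors themselves.

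The levels of the 10 genes were first compared with each other in CD11b+ cells, as CPM per kb of exon sequence. Ccl3 and Ccl4 stood highest, at 393 and 326 CPM per kb as the mean of the 5 group means, and Ccl3 was the higher of the 2 in 21 of 22 libraries. Ccl6 (84.5 CPM per kb) and Ccl12 (61.9 CPM per kb) came next, and each was the higher of that pair in 11 of 22 libraries. Ccl9, Cxcl14 and Cxcl16 lay within 17.6 to 17.9 CPM per kb and their order changed from library to library. Ccl2 followed at 13.3, Ccl5 at 6.24 and Cxcl13 at 3.48 CPM per kb, the last from as few as 5 counts in a library.

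The order in the cortex of APP/PS1 mice was different. Cxcl14 was highest there, at 77.3 CPM per kb, and was above the second gene, Ccl6 (8.09 CPM per kb), in all 8 libraries. Ccl3 had 7.24 CPM per kb and was below Ccl6 in 5 of the 8 libraries. Ccl2 and Cxcl13 were close to the limit of detection in cortex, with 1 to 8 and 1 to 7 counts per library.

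Set side by side, 9 of the 10 genes had a higher CPM in CD11b+ cells than in cortex in both APP/PS1 genotypes, and Cxcl14 did not. In A+/Pwt/wt mice the ratio of the mean CD11b+ level to the mean cortex level was 149 for Ccl4, 65.3 for Cxcl13, 61.8 for Ccl3, 60.1 for Ccl2 and 43.2 for Ccl12. It lay between 17.0 and 23.9 for Ccl5, Ccl6, Ccl9 and Cxcl16. For Cxcl14 the ratio was 0.269, that is 37.1 ± 14.3 CPM in CD11b+ cells (SD, n = 4) and 138 ± 12.2 CPM in cortex (SD, n = 4), and no CD11b+ library reached a cortex library. The astrocyte list of 10 genes moved the same way, with a summed level of 1264 to 3039 CPM in those CD11b+ libraries and 5032 to 6121 CPM in cortex. The neuron list of 15 genes did so as well, with 1129 to 1929 CPM in CD11b+ cells and 15908 to 17617 CPM in cortex. The list of 10 oligodendrocyte genes went the other way, with 21959 to 50891 CPM in those CD11b+ libraries and 4066 to 6739 CPM in cortex. So did a list of 11 vascular genes, with 1257 to 2316 CPM in CD11b+ cells and 261 to 359 CPM in cortex. By these values 9 of the 10 genes were higher in the CD11b+ preparation, and Cxcl14 went against the description of a gene made mainly by microglia. As oligodendrocyte and vascular genes were higher too, a higher level there does not by itself mark a microglial source, which was not tested. The 2 tissues were scaled in separate tables and prepared differently, so no test was made across them.

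**Figure D1:**
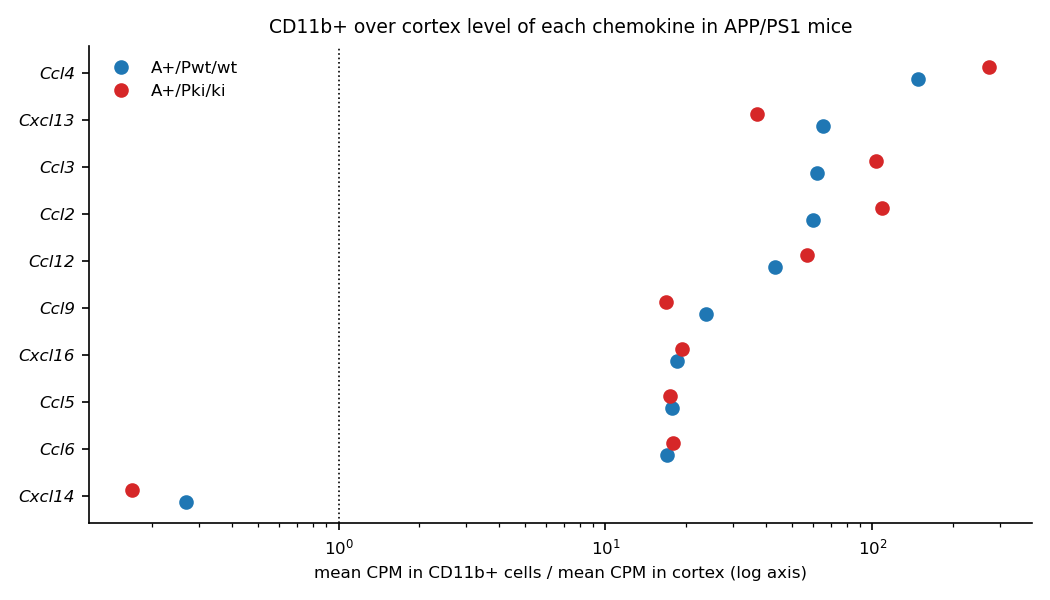
Mean CPM in CD11b+ cells divided by mean CPM in cortex for each chemokine (x axis, log scale) in A+/Pwt/wt (blue) and A+/Pki/ki (red) mice, 4 libraries per group and tissue. 9 genes lie to the right of 1 in both genotypes, and Cxcl14 lies to the left, at 0.269 and 0.169.

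Each comparison was then tested with edgeR's quasi-likelihood test over all genes, with p-values adjusted by Benjamini-Hochberg and a threshold of 0.05. The question in females was how the chemokines of CD11b+ cells differ with APP/PS1, and whether the KI changes them. Between A+/Pwt/wt and A-/Pwt/wt CD11b+ cells 1 of the 10 genes passed, Ccl6, where 1.29% of 17355 genes tested passed (1.01% as higher). Between A+/Pki/ki and A-/Pwt/wt CD11b+ cells 2 of 10 passed, Ccl3 and Ccl6, where 1.64% of 17446 genes did (1.35% as higher). These comparisons share the 7 A-/Pwt/wt libraries. In bulk RNA a change in the number of expressing cells and a change in RNA per cell cannot be told apart.

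Between A+/Pki/ki and A+/Pwt/wt CD11b+ cells none of the 10 genes passed edgeR's test, where 0% of 17039 genes did. 5 of the 10 had an unadjusted p under 0.05, against 3.37% of all genes, and neither DESeq2 nor limma called a member. Between KI and WT males 1 of the 10 passed, Cxcl14, where 16.4% of 16373 genes passed. In cortex, none of the 8 members tested passed between A+/Pki/ki and A+/Pwt/wt mice, where 0% of 18640 genes did. There 1 of the 8 had an unadjusted p under 0.05, against 2.76% of all genes, and DESeq2 and limma called none. Ccl2 and Cxcl13 were below the filter in cortex and were not tested. Between A+/Pwt/wt cortex and the lone A-/Pwt/wt cortex library 3 of the 8 tested genes passed, Ccl3, Ccl4 and Ccl6, where 0.888% of 18810 genes did (0.872% as higher and 0.0159% as lower).

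**Figure D2:**
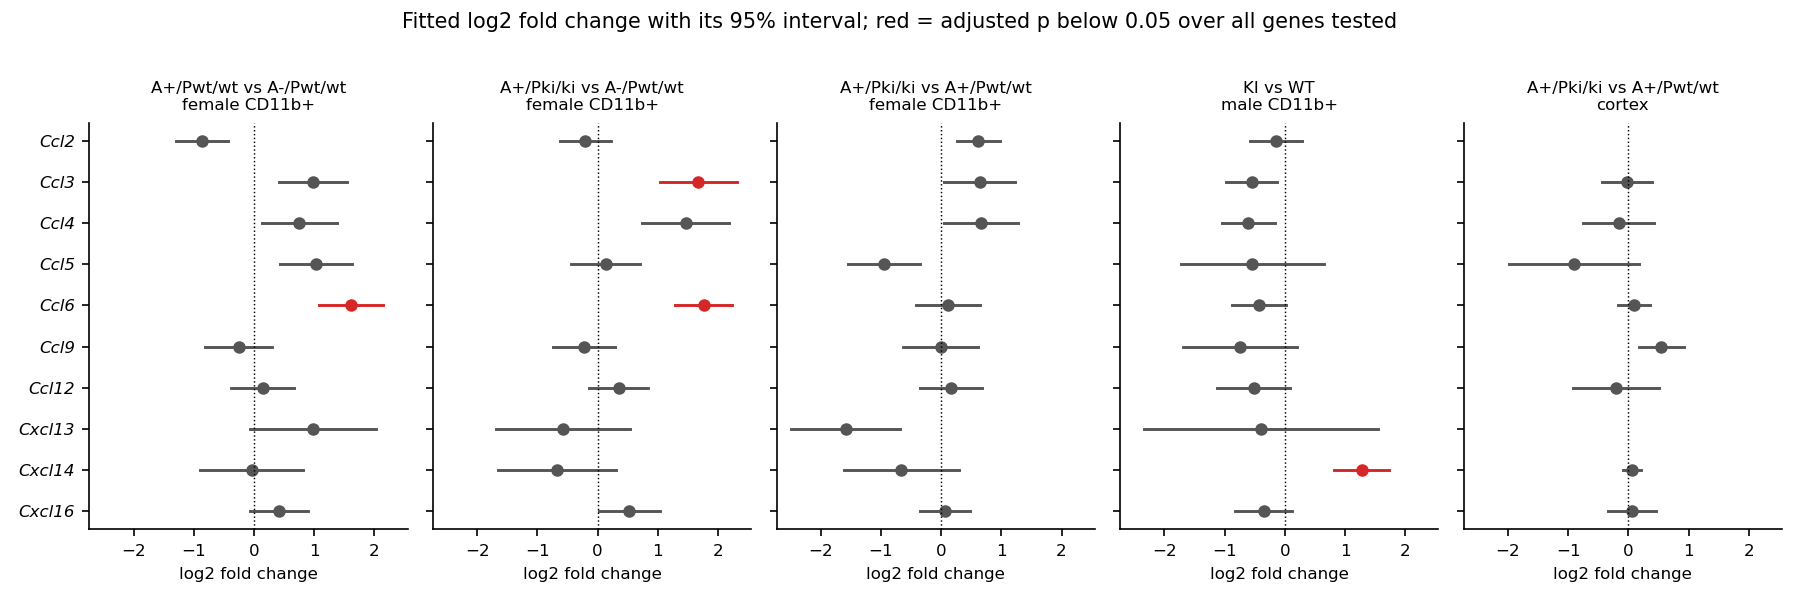
Fitted log2 fold change of each chemokine (x axis) with its 95% interval from edgeR in 5 comparisons, red where the adjusted p over all genes tested was below 0.05. Ccl6 is red in both comparisons with A-/Pwt/wt females, Ccl3 in that of A+/Pki/ki, and Cxcl14 in males. Ccl2 and Cxcl13 are missing from the cortex panel because they were not tested there.

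Ccl3 and Ccl4, inflammatory chemokines that attract monocytes and T cells, were the most abundant of the 10 genes and followed each other closely. Ccl3 ranged from 90.3 to 271 CPM with a median of 187 CPM in the 7 A-/Pwt/wt libraries. It was at 254, 347, 362 and 424 CPM in A+/Pwt/wt and at 361, 455, 631 and 812 CPM in A+/Pki/ki libraries. No A+/Pki/ki library was as low as the highest A-/Pwt/wt library, whereas 1 A+/Pwt/wt library was. The Ccl3 mean rose from 177 ± 63.4 CPM (SD, n = 7) in A-/Pwt/wt to 565 ± 199 CPM (SD, n = 4) in A+/Pki/ki cells (log2 fold change 1.67, SE 0.30, edgeR adjusted p = 0.017). Without A+/Pki/ki mouse 394 or mouse 405, the 2 libraries with the highest Ccl3, this call was lost, and the highest edgeR adjusted p of Ccl3 with 1 library left out was 0.0835. In the same contrast 11 of 12 monocyte and neutrophil genes had a log2 fold change above 0, with a median of 1.15, and 14 of 15 neuron genes had one below 0, with a median of -0.85, beside a median of -0.0148 over all genes. No gene of either list passed. Over the 22 CD11b+ libraries, with group means taken off, Ccl3 had a Pearson's r of -0.08 with the monocyte and neutrophil list. With the neuron list it was -0.41. The part of these lists in the Ccl3 values was not tested. The A+/Pwt/wt level, 347 ± 70.1 CPM (SD, n = 4), did not pass against either group. For A+/Pwt/wt over A-/Pwt/wt the Ccl3 log2 fold change was 0.98 (edgeR adjusted p = 0.119), and the call was made with DESeq2 (adjusted p = 0.0152) and with the neuron score described below as a covariate (edgeR adjusted p = 0.0269). For A+/Pki/ki over A+/Pwt/wt, Ccl3 had a log2 fold change of 0.64, with a 95% interval of 0.05 to 1.23 and edgeR adjusted p = 0.853.

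Ccl4 had a range of 63.5 to 212 CPM and a median of 153 CPM in A-/Pwt/wt cells. It was at 187, 238, 263 and 272 CPM in A+/Pwt/wt and at 241, 315, 422 and 612 CPM in A+/Pki/ki libraries. As with Ccl3, all A+/Pki/ki libraries were above all A-/Pwt/wt libraries, but this was so of 2.5% of genes tested (3.72% did not overlap in either direction), and the test was just missed (log2 fold change 1.46, SE 0.33, edgeR adjusted p = 0.0509). It passed with DESeq2's size factors, without the filter, with all 3 groups in the fit and with DESeq2's own test, over which the adjusted p ran from 0.00169 to 0.0473, but not with limma or with the neuron score as a covariate. For A+/Pwt/wt over A-/Pwt/wt the Ccl4 log2 fold change was 0.75 (edgeR adjusted p = 0.334), and for A+/Pki/ki over A+/Pwt/wt it was 0.67, with an interval of 0.05 to 1.28 (edgeR adjusted p = 0.853).

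In males the KI moved neither gene past the threshold. Ccl3 was at 173, 243 and 328 CPM in WT and at 157, 158, 175 and 188 CPM in KI males, and the KI values lay in the lower part of the WT range and below it. The Ccl3 log2 fold change was -0.55 with an interval of -0.97 to -0.13 (edgeR adjusted p = 0.0759). Ccl4 was at 120, 184 and 228 CPM in WT and at 102, 107, 125 and 133 CPM in KI males, with a log2 fold change of -0.60 and edgeR adjusted p = 0.0638. Both passed with DESeq2's test, with adjusted p-values of 0.0447 for Ccl3 and 0.0326 for Ccl4, and without the filter on low counts, and both passed in the edgeR fit without WT mouse 102. In the same contrast 12 of 12 homeostatic microglial genes had a log2 fold change below 0, with a median of -0.40. So did 15 of 17 immediate early genes, with a median of -0.51, beside -0.0012 over all genes. All 15 neuron genes were above 0, with a median of 2.09. The part of these lists in the male Ccl3 and Ccl4 values was not tested. The difference between the KI effect in males without APP/PS1 and that in APP/PS1 females was tested in 1 fit, and none of the 10 members passed, where 0% of 17619 genes did. In that edgeR fit 4 members (Ccl2, Ccl3, Ccl4 and Cxcl14) had an unadjusted p under 0.05, against 26.5% of all genes, and DESeq2 called 3 of them. The difference was -1.16 for Ccl3 and -1.24 for Ccl4 on the log2 scale, with edgeR adjusted p = 0.143 for each. Sex, transgene and the tag in the column names, which also differed between the males and these females, cannot be told apart in it. Without A+/Pki/ki mouse 335, the edgeR fit called 4 members, Ccl2, Ccl3 and Ccl4 lower and Cxcl14 higher, but it also called 6199 of all 17495 genes tested (2725 lower and 3474 higher).

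Over the 22 CD11b+ libraries, after each group's mean was taken off, Ccl3 and Ccl4 had the highest correlation of any pair of members (Pearson's r = 0.97, Spearman's rho = 0.92). Among the 11342 genes that averaged 5 CPM or more, Ccl4 was the gene most like Ccl3, followed by Osm (r = 0.90) and Il1b (r = 0.88), both inducible cytokine genes. Sat1 (r = 0.91) and Mir142hg (r = 0.89) were next for Ccl4. All libraries contribute 1 point each, and they share depth and the make-up of the preparation. A list of 17 immediate early genes, which rise within minutes of stimulation or tissue dissociation, also moved with them, with r = 0.73 for Ccl3 and r = 0.75 for Ccl4. The summed level of that list ran from 5539 to 7798 CPM in A+/Pwt/wt and from 5978 to 22449 CPM in A+/Pki/ki libraries, and was highest in mice 394 and 405, which also had the highest Ccl3 and Ccl4. In A-/Pwt/wt libraries the list had 7866 to 17345 CPM. None of the 17 genes passed for A+/Pki/ki over A-/Pwt/wt or over A+/Pwt/wt. In the latter contrast 17 of 17 were higher in sign, with a median log2 fold change of 0.85 against 0.00426 over all genes. The part of these genes in the Ccl3 and Ccl4 values was not tested.

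In cortex, Ccl3 had 2 counts and Ccl4 had 1 count in the lone A-/Pwt/wt library. In A+/Pwt/wt cortex Ccl3 had 114, 161, 193 and 210 counts (5.61 ± 1.55 CPM, SD, n = 4) and Ccl4 had 36, 46, 49 and 67 counts (1.61 ± 0.26 CPM, SD, n = 4). The ratio of A+/Pwt/wt to A-/Pwt/wt was 116 for Ccl3, with an exact 95% counting interval of 32.0 to 959, and 67.7 for Ccl4, with an interval of 12.01 to 2687. These intervals cover counting error in the reads only. All 4 A+/Pwt/wt libraries were above the lone library, as was the case for 22.3% of genes tested, while 41.7% did not overlap in either direction. Both genes passed in the fit in which the lone library was taken to vary like the others (edgeR adjusted p = 0.00022 for Ccl3 and 0.00385 for Ccl4). A+/Pki/ki cortex did not differ from A+/Pwt/wt cortex by the test, with 5.48 ± 1.04 CPM of Ccl3 and 1.45 ± 0.49 CPM of Ccl4 (SD, n = 4). The 95% interval of that difference was -0.45 to 0.39 for Ccl3 and -0.76 to 0.43 for Ccl4 on the log2 scale, with edgeR adjusted p = 1 for both.

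Ccl5, a chemokine best known as a product of T cells, was low throughout. It had 3.01 to 7.65 CPM, with a median of 4.16 CPM, in A-/Pwt/wt cells. It was at 5.64, 9.19, 10.4 and 13.2 CPM in A+/Pwt/wt and at 4.13, 5.14, 5.35 and 6.16 CPM in A+/Pki/ki cells. The A+/Pwt/wt libraries were thus the high ones, 3 of them above every A-/Pwt/wt and A+/Pki/ki library, but neither contrast passed in the edgeR test. Ccl5 was called for A+/Pwt/wt over A-/Pwt/wt with DESeq2 (adjusted p = 0.0192) and with the neuron score as a covariate (edgeR adjusted p = 0.0312). The log2 fold change of Ccl5 was 1.03 for A+/Pwt/wt over A-/Pwt/wt (edgeR adjusted p = 0.119) and -0.95 for A+/Pki/ki over A+/Pwt/wt (edgeR adjusted p = 0.853), with a 95% interval of -1.56 to -0.35 for the latter. In males Ccl5 was at 3.34, 4.03 and 11.2 CPM in WT and at 1.36, 3.43, 5.83 and 6.25 CPM in KI mice, and the groups overlapped. In cortex Ccl5 had 7 counts in the A-/Pwt/wt library, 4, 11, 26 and 30 in A+/Pwt/wt and 4, 11, 12 and 16 in A+/Pki/ki libraries, and did not pass. Cxcl10, an interferon-induced chemokine gene, was the gene most like Ccl5 over the CD11b+ libraries (r = 0.79), and its correlation with the list of 16 lymphocyte genes was lower (r = 0.30).

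Ccl6 and Ccl9, the neighbouring CCR1 ligands, behaved differently with the transgene. Ccl6 had 39.8 to 105 CPM, with a median of 79.8 CPM, in A-/Pwt/wt cells. It was at 162, 201, 235 and 358 CPM in A+/Pwt/wt and at 200, 281, 281 and 311 CPM in A+/Pki/ki cells. Every APP/PS1 library was above every A-/Pwt/wt library. Such a gap upward was present for 1.95% of genes tested in A+/Pwt/wt and for 2.5% in A+/Pki/ki cells. Ccl6 rose from 79.0 ± 21.1 CPM (SD, n = 7) to 239 ± 84.7 CPM (SD, n = 4) in A+/Pwt/wt cells, a 3.06-fold difference (log2 fold change 1.61, SE 0.25, edgeR adjusted p = 0.00626). In A+/Pki/ki cells it rose to 269 ± 47.7 CPM (SD, n = 4), with a log2 fold change of 1.77 (SE 0.22, edgeR adjusted p = 0.00235). Ccl6 passed in all 22 fits that left out 1 library, with edgeR adjusted p-values up to 0.0285 for A+/Pwt/wt and up to 0.0122 for A+/Pki/ki. Between the APP/PS1 genotypes the Ccl6 difference was 0.11, with a 95% interval of -0.43 to 0.65 (edgeR adjusted p = 0.889).

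Ccl9 showed no such difference. It had 29.0 to 77.8 CPM, with a median of 60.3 CPM, in A-/Pwt/wt cells, and was at 33.7, 39.2, 44.1 and 74.1 CPM in A+/Pwt/wt and at 35.9, 46.6, 47.1 and 67.8 CPM in A+/Pki/ki cells. All 3 groups overlapped, and the log2 fold change of A+/Pwt/wt over A-/Pwt/wt was -0.25 with a 95% interval of -0.81 to 0.30 (edgeR adjusted p = 0.894). The interval of Ccl6 in the same contrast, 1.07 to 2.15, did not reach that of Ccl9, although the difference between the 2 genes was not itself tested. Within groups, Ccl6 and Ccl9 varied together (r = 0.74, n = 22). Otulinl, M6pr and Grb2 were the genes most like Ccl6 (r = 0.94 each), and Rnase6 (r = 0.90), Prorsd1 (r = 0.87) and C1qc (r = 0.87) those most like Ccl9.

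In males Ccl6 was at 95.8, 99.7 and 99.9 CPM in WT and at 53.5, 60.8, 74.1 and 104 CPM in KI libraries. 3 of the 4 KI libraries were below all WT libraries, and the remaining one, mouse 104, was above them. Ccl9 had the same layout, with 67.8, 70.7 and 83.5 CPM in WT and 19.7, 25.0, 44.4 and 87.8 CPM in KI males, mouse 104 again being the highest. Neither passed (edgeR adjusted p = 0.165 for Ccl6 and 0.253 for Ccl9). Without KI mouse 104 the number of members called in males went from 1 to 6, since Ccl4, Ccl6, Ccl9, Ccl12 and Cxcl16 then passed as lower in KI. The number over all genes went up as well, from 2685 of 16373 to 5439 of 16242, of which 2153 were lower. The edgeR adjusted p-values were then 0.00395 for Ccl6, 0.00573 for Ccl9, 0.0111 for Ccl12 and 0.0206 for Cxcl16. In that library the summed level of the homeostatic list was 28634 CPM, against 16873 to 21848 CPM in the other 3 KI and 27911 to 29289 CPM in the WT libraries.

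In cortex Ccl6 had 32 counts (0.76 CPM) in the A-/Pwt/wt library and 344, 425, 460 and 468 counts in A+/Pwt/wt libraries, at 14.0 ± 2.01 CPM (SD, n = 4). The ratio was 18.1, with an exact 95% counting interval of 12.8 to 26.6, and Ccl6 rose by the test (log2 fold change 4.19, SE 0.30, edgeR adjusted p = 2.52e-05). A+/Pki/ki cortex had 12.4, 13.9, 16.8 and 16.9 CPM of Ccl6, which overlapped A+/Pwt/wt cortex (12.9 to 17.1 CPM). Ccl9 was at 1.17 CPM in the A-/Pwt/wt library, 1.61, 1.95, 2.19 and 2.25 CPM in A+/Pwt/wt and 2.42, 3.04, 3.12 and 3.13 CPM in A+/Pki/ki cortex. It was thus the 1 member tested whose A+/Pki/ki and A+/Pwt/wt cortex libraries did not overlap, as was the case for 1.85% of genes tested, but the difference did not pass (log2 fold change 0.55, 95% interval 0.17 to 0.93, edgeR adjusted p = 1). In the same cortex libraries 8 of the 12 homeostatic microglial genes were higher in A+/Pwt/wt than in the lone A-/Pwt/wt library by the test, with a median log2 fold change of 0.91 over the list against 0.01 over all genes. The log2 fold changes of Ccl9 (0.77) and Cxcl16 (0.78) were near that median, as was that of Cx3cr1 (0.88), itself a gene of the list. Those of Ccl3, Ccl4 and Ccl6 were above it, as were those of Ccl5 (1.71) and Ccl12 (1.94), which did not pass. That of Cxcl14 (0.11) was below it.

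**Figure D3:**
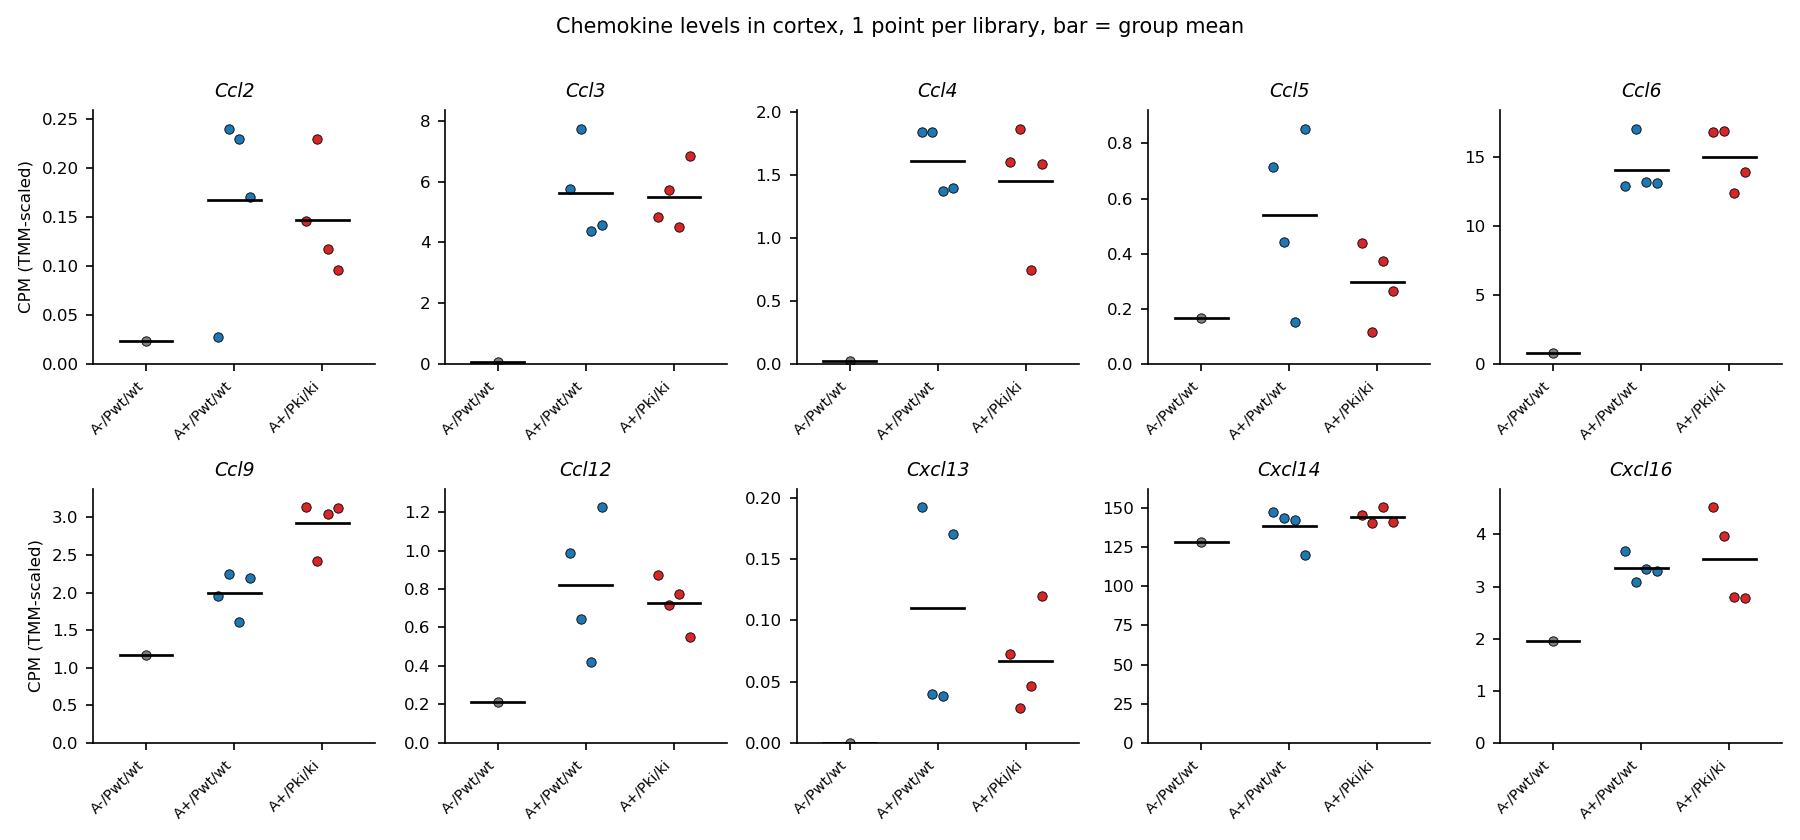
TMM-scaled CPM of each chemokine in cortex (y axis, linear from 0, separate scale per gene), 1 point per library, with the group mean as a bar, for 1 A-/Pwt/wt, 4 A+/Pwt/wt and 4 A+/Pki/ki mice. Ccl3, Ccl4 and Ccl6 are near 0 in the A-/Pwt/wt library, Cxcl14 is near 140 CPM in all groups, and Ccl9 does not overlap between the APP/PS1 genotypes.

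Ccl2 and Ccl12, the CCR2 ligands that recruit monocytes, did not follow Ccl6. Ccl2 had 12.4 to 25.7 CPM, with a median of 17.99 CPM, in A-/Pwt/wt cells. It was at 8.25, 9.89, 10.6 and 11.4 CPM in A+/Pwt/wt and at 14.3, 14.7, 16.2 and 19.1 CPM in A+/Pki/ki cells. The A+/Pwt/wt libraries were below all libraries of both other groups, while A+/Pki/ki and A-/Pwt/wt overlapped. Such a gap between A+/Pwt/wt and A-/Pwt/wt was present for 3.35% of genes tested, and one between the APP/PS1 genotypes for 2.81%. The log2 fold change of Ccl2 was -0.87 for A+/Pwt/wt over A-/Pwt/wt (SE 0.20, edgeR adjusted p = 0.0605) and 0.61 for A+/Pki/ki over A+/Pwt/wt (SE 0.16, edgeR adjusted p = 0.853). The first passed in 4 of the 7 other settings, with adjusted p-values of 0.00266 to 0.0282, and without A-/Pwt/wt mouse 223 (edgeR adjusted p = 0.0128). The second passed in none.

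Markers of border macrophages, which lie at the meninges and vessels, were lower in the same contrast. 4 of 9 such genes (Pf4, Cd163, Cd209f and Clec10a) fell in A+/Pwt/wt against A-/Pwt/wt cells, where 0.282% of all genes tested did. The median log2 fold change was -1.02 over the list against -0.03 over all genes. In A+/Pki/ki against A-/Pwt/wt cells Cbr2 and Clec10a fell, where 0.287% of all genes tested did, and the median of the list was -0.81. The summed level of that list was 284 to 659 CPM in A-/Pwt/wt, 201 to 241 CPM in A+/Pwt/wt and 206 to 326 CPM in A+/Pki/ki libraries. Within groups Ccl2 was most like Lyve1, a border macrophage gene (r = 0.80, n = 22), followed by Cpq and Cops8 (r = 0.72 each), and had r = 0.72 with the border macrophage list. Other lists also leaned lower in A+/Pwt/wt against A-/Pwt/wt cells, though none of their genes passed. These were 11 of 12 monocyte and neutrophil genes (median -0.97), 16 of 17 immediate early genes (-0.69) and 8 of 10 lymphocyte genes tested (-0.45). Homeostatic microglial and neuron genes were mixed in sign, with medians of -0.06 and 0.0062. The part of any of these lists in the Ccl2 values was not tested. In males Ccl2 was at 12.3, 15.2 and 21.5 CPM in WT and at 12.6, 15.01, 15.6 and 15.9 CPM in KI mice, with a log2 fold change of -0.14 and a 95% interval of -0.57 to 0.29.

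Ccl12 had 21.7 to 53.5 CPM, with a median of 30.5 CPM, in A-/Pwt/wt cells. It was at 23.3, 35.6, 36.3 and 46.3 CPM in A+/Pwt/wt and at 32.5, 37.1, 44.6 and 51.4 CPM in A+/Pki/ki cells, and the 3 groups overlapped. Its log2 fold changes were 0.14 for A+/Pwt/wt and 0.35 for A+/Pki/ki over A-/Pwt/wt, with edgeR adjusted p-values of 0.96 and 0.481. Male Ccl12 levels were 25.0, 35.0 and 40.6 CPM in WT and 15.7, 20.5, 21.2 and 36.4 CPM in KI mice, the highest KI library again being mouse 104 (edgeR adjusted p = 0.212). Nmi, an interferon-induced gene, was the gene most like Ccl12 over the CD11b+ libraries (r = 0.88). In cortex Ccl12 had 9 counts in the A-/Pwt/wt library, 11, 16, 36 and 43 in A+/Pwt/wt and 23, 24, 25 and 33 in A+/Pki/ki libraries, and did not pass in either contrast. Ccl2 had 1 count in the A-/Pwt/wt cortex library and 1, 6, 6 and 6 counts in A+/Pwt/wt libraries, a ratio of 6.49 with an exact 95% counting interval of 1.03 to 270.

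**Figure D4:**
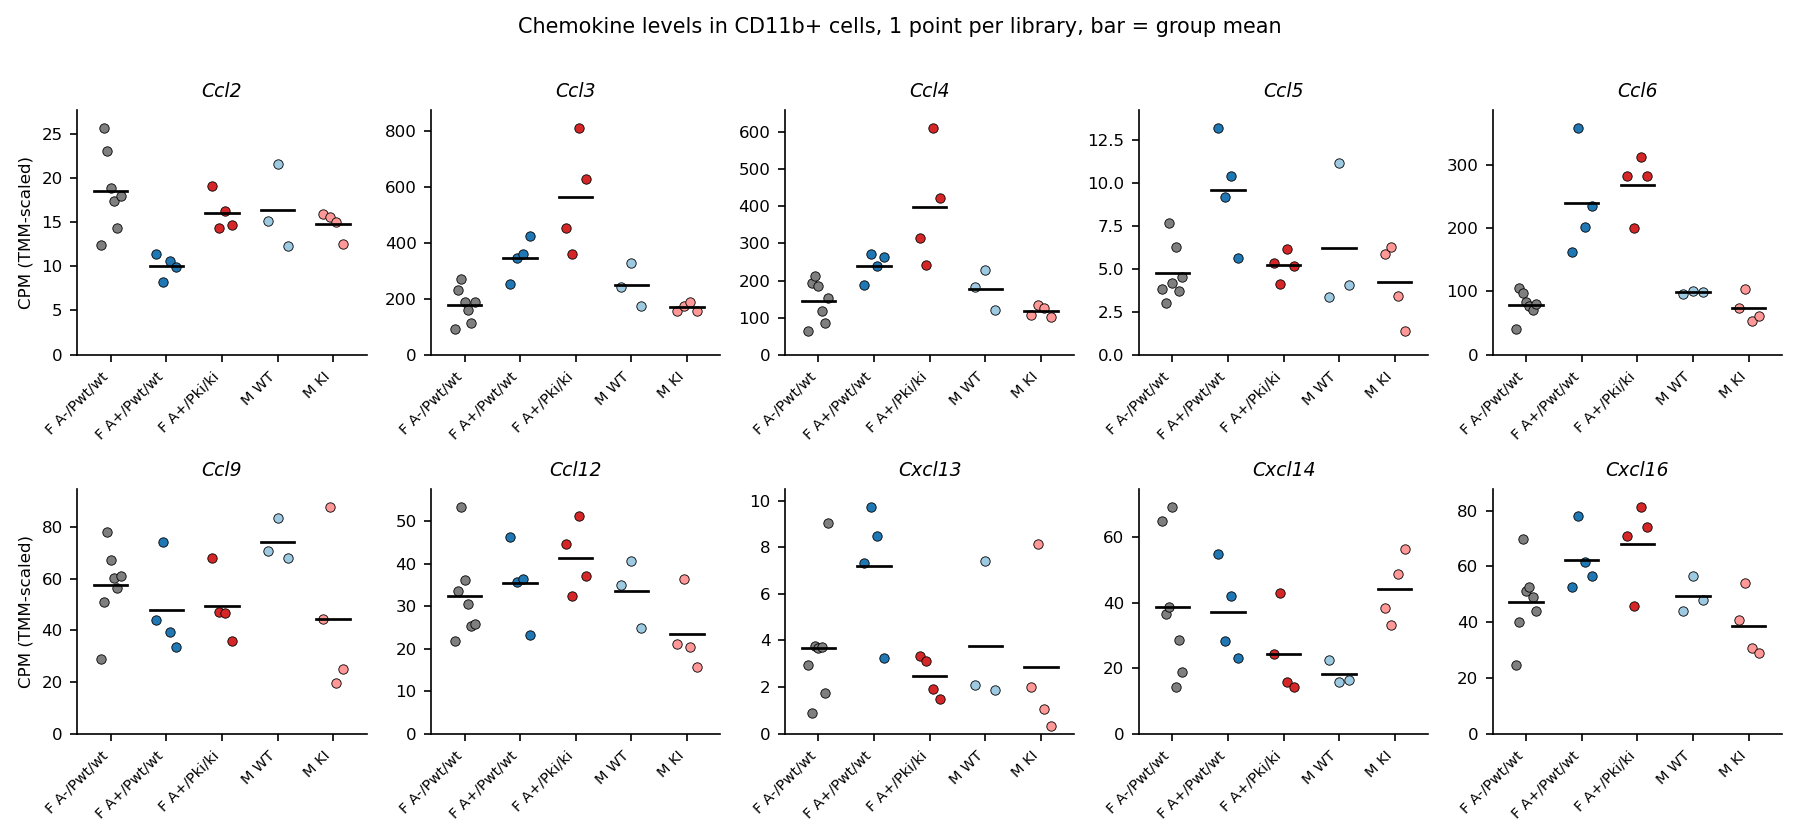
TMM-scaled CPM of each chemokine in CD11b+ cells (y axis, linear from 0, separate scale per gene), 1 point per library, with the group mean as a bar, for females (F) of 3 genotypes and males (M) of 2. Ccl6 separates both APP/PS1 groups from A-/Pwt/wt females, Ccl3 and Ccl4 are highest in A+/Pki/ki libraries, Ccl2 is lowest in A+/Pwt/wt, and Cxcl14 separates male KI (33.2 to 56.3 CPM) from male WT (15.9 to 22.4 CPM).

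Cxcl13, the B cell attractant, was the lowest of the 10 genes in CD11b+ cells. It had 0.866 to 9.05 CPM, with a median of 3.68 CPM, in A-/Pwt/wt cells. It was at 3.25, 7.34, 8.48 and 9.74 CPM in A+/Pwt/wt and at 1.5, 1.94, 3.13 and 3.34 CPM in A+/Pki/ki cells. 3 of the 4 A+/Pwt/wt libraries were above every A+/Pki/ki library, and the lowest of them, mouse 380, lay among these. The log2 fold change of A+/Pki/ki over A+/Pwt/wt was -1.59, the most negative of the 10, with a 95% interval of -2.50 to -0.68 and edgeR adjusted p = 0.853. In males 1 WT library (7.41 CPM) and 1 KI library (8.16 CPM, mouse 104) were high, while the others were at 1.85 and 2.08 CPM in WT and at 0.310, 1.04 and 2.01 CPM in KI mice. Cxcl13 was listed at 0 counts in A-/Pwt/wt cortex, where a count of 0 allows up to 0.0716 CPM (3 counts), and had 1, 1, 6 and 7 counts in A+/Pwt/wt and 1, 2, 2 and 5 counts in A+/Pki/ki cortex. Ifi211, an interferon-induced gene, was the most like Cxcl13 (r = 0.80), and Ccl5 was also among its closest 3 genes (r = 0.76).

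Cxcl16, the transmembrane ligand of CXCR6, changed little. It had 24.5 to 69.7 CPM, with a median of 49.1 CPM, in A-/Pwt/wt cells. It was at 52.6, 56.6, 61.5 and 78.1 CPM in A+/Pwt/wt and at 45.7, 70.7, 74.0 and 81.4 CPM in A+/Pki/ki cells, and the groups overlapped. Its log2 fold changes over A-/Pwt/wt were 0.41 (95% interval -0.07 to 0.89) and 0.53 (95% interval 0.01 to 1.04), with edgeR adjusted p-values of 0.601 and 0.318. In males Cxcl16 was at 43.9, 47.8 and 56.5 CPM in WT and at 28.9, 30.9, 40.9 and 54.0 CPM in KI mice (edgeR adjusted p = 0.267). Cxcl16 and Ccl6 were the members closest to the homeostatic microglial list over the 22 libraries, with r = 0.85 and 0.86, and to each other (r = 0.81) after Ccl3 and Ccl4. 4 sheddase genes, of which Adam10 and Adam17 are known to release CXCL16, had no call in any comparison, with list medians of 0.11, 0.31, 0.16 and -0.32 on the log2 scale in the 4 CD11b+ contrasts above. Adam10 was the most abundant of them, at 44.7 CPM per kb.

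Cxcl14 was the 1 member that passed with the KI in males. It was at 15.9, 16.3 and 22.4 CPM in WT and at 33.2, 38.4, 48.7 and 56.3 CPM in KI males. The groups did not overlap, as was the case for 30.8% of genes tested in that comparison. Cxcl14 rose from 18.2 ± 3.64 CPM (SD, n = 3) to 44.1 ± 10.3 CPM (SD, n = 4), a 2.42-fold difference (log2 fold change 1.28, SE 0.20, edgeR adjusted p = 0.00589). All 15 neuron markers and all 10 astrocyte markers rose in the same libraries, with median log2 fold changes of 2.09 and 1.14, and 6 of 10 oligodendrocyte and 3 of 11 vascular markers rose as well. A neuron score, the average over the 15 neuron genes of their log2 CPM, was 3.10 to 3.64 in WT and 4.54 to 5.69 in KI males, without overlap. With that score as a covariate the Cxcl14 log2 fold change was 0.57 with edgeR adjusted p = 0.954, and 0 of 16373 genes passed in that edgeR fit (707 had an unadjusted p under 0.05).

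The astrocyte list followed Cxcl14 in the female groups too. Cxcl14 ranged from 14.4 to 69.3 CPM, with a median of 36.5 CPM, in A-/Pwt/wt cells. It was at 23.2, 28.4, 42.0 and 55.0 CPM in A+/Pwt/wt and at 14.3, 15.7, 24.4 and 42.8 CPM in A+/Pki/ki cells, and the 3 groups overlapped. No female contrast passed, with log2 fold changes of -0.04, -0.67 and -0.66 and edgeR adjusted p-values of 0.998, 0.498 and 0.853. Over the 22 libraries, with group means taken off, Cxcl14 had r = 0.97 with the astrocyte list, 0.88 with the neuron list and -0.73 with the homeostatic microglial list. The genes most like it were Ppp1r3c (r = 0.98), Agt (r = 0.98) and Slc25a18 (r = 0.98), of which Agt, encoding angiotensinogen, is an astrocyte gene in brain. In cortex Cxcl14 was at 128 CPM in the A-/Pwt/wt library, at 120, 142, 143 and 147 CPM in A+/Pwt/wt and at 140, 141, 145 and 150 CPM in A+/Pki/ki mice. There it had the narrowest interval of the 8 genes tested in both contrasts, -0.10 to 0.22 for the KI contrast and -0.14 to 0.36 for A+/Pwt/wt over A-/Pwt/wt on the log2 scale.

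**Figure D5:**
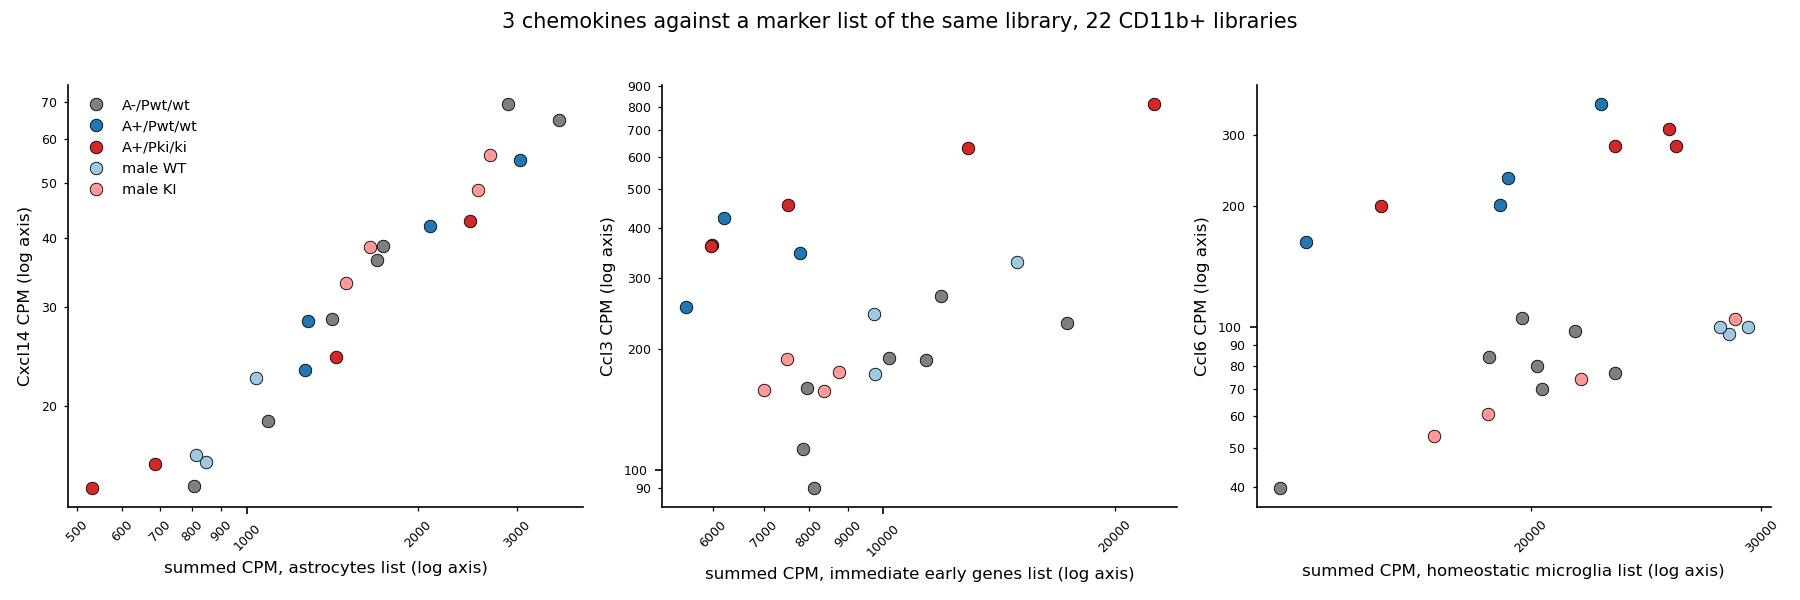
CPM of Cxcl14, Ccl3 and Ccl6 (y axes, log scale) against the summed CPM of the astrocyte, immediate early and homeostatic microglial lists (x axes, log scale) in 22 CD11b+ libraries, coloured by group. Cxcl14 lies along 1 line with the astrocyte list whatever the group, the 2 A+/Pki/ki libraries with the highest immediate early sums have the highest Ccl3, and Ccl6 forms an upper band of APP/PS1 libraries and a lower band of the others.

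The neuron score also differed within female groups. It was 6.99 and 6.01 in A-/Pwt/wt mice 223 and 236, above every A+/Pwt/wt library (4.86 to 5.69), and 2.94 and 3.25 in A+/Pki/ki mice 405 and 394, below all of them. A+/Pki/ki mouse 244 (4.28) was also below that A+/Pwt/wt range, and A+/Pki/ki mouse 335 (6.08) was above it. A-/Pwt/wt mice 242, 243 and 245 (3.75, 4.63 and 3.99) were below it too. Without mice 223 and 236, Ccl6 still passed for A+/Pwt/wt over A-/Pwt/wt and Ccl2 passed as lower (edgeR adjusted p = 0.0176). Without mice 394 and 405 no member passed for A+/Pki/ki over A+/Pwt/wt, as with all libraries. A list of 12 monocyte and neutrophil genes was at 862 to 2266 CPM in A+/Pki/ki and at 466 to 809 CPM in A+/Pwt/wt libraries. All 12 had a log2 fold change above 0 for A+/Pki/ki over A+/Pwt/wt, with a median of 2.26 beside 0.00426 over all genes, and none of them passed. Apart from the border macrophage genes, no gene of the lists for microglia, neurons, astrocytes, oligodendrocytes, vascular cells and lymphocytes passed in a female CD11b+ contrast. Male WT and female A-/Pwt/wt cells, set on 1 scale, had 233 ± 75.1 CPM (SD, n = 3) and 182 ± 67.1 CPM (SD, n = 7) of Ccl3, 92.1 ± 2.66 and 81.1 ± 22.3 CPM of Ccl6, and 17.0 ± 3.32 and 39.8 ± 21.8 CPM of Cxcl14. These groups differ in sex and in the tag of their column names, which cannot be told apart, and were not tested.

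The rest of the chemokine system was examined in the same fits. Of 27 other chemokine ligand genes, 15 were tested in A+/Pwt/wt over A-/Pwt/wt cells, where only Pf4 passed, falling from 23.5 to 10.8 CPM (log2 fold change -1.11, edgeR adjusted p = 0.027). Pf4 is also one of the border macrophage markers. None of 15 passed for A+/Pki/ki over A-/Pwt/wt and none of 14 between the APP/PS1 genotypes. In males 2 of 13 rose in KI, where 11.1% of all genes tested did. They were Ccl27a, which has near-identical copies that may share its reads, from 5.35 to 12.3 CPM (log2 fold change 1.20, edgeR adjusted p = 0.00858) and the neuronal ligand Cx3cl1 from 28.6 to 55.1 CPM (log2 fold change 0.94, edgeR adjusted p = 0.0336). Pf4, Cxcl12 and Cx3cl1 had the highest levels of that list over the CD11b+ libraries, at 24.0, 22.9 and 10.4 CPM per kb. In cortex Cxcl5, a neutrophil attractant, was higher in A+/Pwt/wt than in the lone A-/Pwt/wt library (1.64 against 0.19 CPM, edgeR adjusted p = 0.0154).

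Among 24 chemokine receptor genes, Cx3cr1 was far the most abundant in CD11b+ cells, at 655 CPM per kb. Ccrl2, an atypical receptor that presents chemerin, had 23.0 CPM per kb and was the receptor gene that rose with APP/PS1. It went from 39.4 ± 9.14 CPM (SD, n = 7) to 87.4 ± 20.4 CPM (SD, n = 4) in A+/Pwt/wt cells (log2 fold change 1.16, edgeR adjusted p = 0.0084). In A+/Pki/ki cells Ccrl2 was at 109 ± 56.0 CPM (SD, n = 4), with a log2 fold change of 1.47 over A-/Pwt/wt (edgeR adjusted p = 0.0278). In cortex it rose from 0.31 to 1.62 CPM (edgeR adjusted p = 0.0274), and Cx3cr1 rose from 60.6 to 112 CPM (log2 fold change 0.88, edgeR adjusted p = 0.0135). Cx3cr1 did not pass in CD11b+ cells, with log2 fold changes of -0.10, 0.20 and 0.25 in the female contrasts and -0.52 in males. In male KI cells 2 of 17 receptor genes tested rose, where 11.1% of all genes tested did. They were the atypical receptor genes Ackr1 (0.45 to 2.89 CPM, edgeR adjusted p = 0.0054) and Ackr3 (15.1 to 27.3 CPM, edgeR adjusted p = 0.0489). Both have known expression in endothelial cells.

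NF-kB and AP-1 regulators, which act upstream of Ccl2, Ccl3, Ccl4 and Ccl5 in macrophages, were tested for 16 of 17 listed genes. None passed in a female contrast, with medians of -0.09 for A+/Pwt/wt and 0.18 for A+/Pki/ki over A-/Pwt/wt. Between the APP/PS1 genotypes the median was 0.28, against 0.00426 over all genes, and 16 of 16 were higher in sign. So were 12 of 12 homeostatic microglial genes there, with a median of 0.22. All 15 neuron and all 10 astrocyte genes were lower in sign, with medians of -0.82 and -0.67. None of these genes passed, and the part of the make-up of the preparation was not tested. In male KI cells 4 of the regulators fell, where 5.26% of all genes fell. Tnfaip3, an inhibitor of NF-kB, went from 127 to 67.5 CPM (log2 fold change -0.91, edgeR adjusted p = 0.0133) and Atf3, a stress-induced AP-1 family factor, from 463 to 236 CPM (log2 fold change -0.97, edgeR adjusted p = 0.023). Rel had a log2 fold change of -0.52 (edgeR adjusted p = 0.00855) and Ikbkg of -0.35 (edgeR adjusted p = 0.0379). Jund, Atf3 and Nfkbia were the most abundant of the list, at 205, 195 and 153 CPM per kb. With the neuron score as a covariate no gene of any list passed in males, where 0 of all 16373 genes tested did. That score did not overlap between WT and KI males, so this fit says little about the KI for these genes.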

How the data were processed

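Mouse bulk RNA-seq libraries of CD11b+ cells and cortex were analysed from the gene count tables deposited by the authors. Per the paper's methods and the submitters' processing notes, reads were trimmed (Trimmomatic 0.39), aligned with STAR 2.7.9a to GRCm38 with Gencode M25 and counted without strand by featureCounts 2.12.0. The deposited log2 values are variance-stabilized counts and served 1 alternative. Gene lengths and positions came from Gencode M21 of the same build.

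Libraries were grouped by their labels. Counts were scaled by TMM within each table, genes reaching 10 counts in 3 or more libraries were kept, and edgeR 4.0.16 (quasi-likelihood F test) was fitted to the groups compared, with Benjamini-Hochberg adjustment over all genes tested. For the cortex transgene contrast all 9 libraries were fitted. Alternatives used DESeq2 1.42.0 and limma 3.58.1, and the fits were tested on simulated counts. Likeness was Pearson's r of log2 CPM (prior count 2) after subtracting group means. Alternatives that leave out mice 223 and 236, or 394 and 405, were chosen after seeing the data.

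The members and all gene lists were chosen with earlier results of these data known. In each comparison all members are named, and marker genes counted at 5 or fewer were named after their values were seen. Of the ligand, receptor, regulator and sheddase lists, the 5 called genes of largest fold change that averaged 1 CPM or more, the 3 most abundant genes, Cx3cr1 and Cx3cl1 are named, except 1 gene that is not reported here. Mice were separate animals. Depth was 16229831 to 43129427 counts per library, and counting intervals cover counting error only.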

Additional observations from a re-analysis of the deposited data

Results flagged for a closer look

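Each of the 10 genes was checked in each group of 4 to 7 libraries, which gave 60 sets of values from the same libraries. In 3 of the 60 sets 1 library stood apart from the others by Dixon's criterion. Chance alone meets that criterion in about 1 of 20 sets, so 3 of 60 is no more than that rate. In A+/Pwt/wt cortex Ccl6 was at 17.1 CPM in mouse 257 and at 12.9 to 13.2 CPM in the other 3 libraries. In A+/Pki/ki cortex Ccl9 was at 2.42 CPM in mouse 203 and at 3.04 to 3.13 CPM in the other 3, and this lowest value was still above the highest A+/Pwt/wt cortex library (2.25 CPM). In A-/Pwt/wt CD11b+ cells Cxcl13 was at 9.05 CPM in mouse 245 and at 0.866 to 3.75 CPM in the other 6.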

How the results depend on the processing

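The calls of Ccl6 in both contrasts of female CD11b+ cells with A-/Pwt/wt cells, and of Ccl3, Ccl4 and Ccl6 in cortex, were made under every alternative run. For A+/Pwt/wt over A-/Pwt/wt CD11b+ cells the number of members called was 1, and it was 4 with DESeq2 and with the neuron score as a covariate, 2 with all groups of the table in the fit and 2 without mice 223 and 236. In males it was 1, and it was 3 with DESeq2, 3 without the filter and 0 with the neuron score as a covariate. For the difference of the KI effects it was 0, and 3 with DESeq2. With 1 library left out the number called ran from 1 to 2 for A+/Pwt/wt and from 1 to 3 for A+/Pki/ki over A-/Pwt/wt, from 0 to 0 for A+/Pki/ki over A+/Pwt/wt, from 1 to 6 in males, from 0 to 4 for the difference, and in cortex from 0 to 0 for the KI and from 3 to 3 for the transgene. The cause was not tested.

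Some log2 fold changes changed sign. For A+/Pwt/wt over A-/Pwt/wt cells Cxcl14 was 0.48 without mice 223 and 236 and 0.0667 with limma. For A+/Pki/ki over A-/Pwt/wt cells Ccl5 was -0.016 with the neuron score. For A+/Pki/ki over A+/Pwt/wt cells, without mice 394 and 405, Ccl6 was -0.0249, Ccl9 0.23 and Cxcl16 -0.14, and with the neuron score Ccl6 was -0.17, Ccl9 0.0191 and Cxcl16 -0.26. Ccl9 was also 0.00365 with DESeq2, 0.00346 with its size factors, 0.0466 with all groups and 0.0318 with limma. In males with the neuron score Ccl5 was 0.15 (-0.54 without it), Ccl6 0.30 (-0.43), Ccl9 0.83 (-0.74), Cxcl13 0.49 (-0.39) and Cxcl16 0.28 (-0.35). With 1 library left out, signs changed within -0.0271 to 0.31 for Ccl12 and -0.31 to 0.15 for Cxcl14 (A+/Pwt/wt over A-/Pwt/wt), and within -0.0285 to 0.35 for Ccl6, -0.19 to 0.27 for Ccl9 and -0.0303 to 0.23 for Cxcl16 (A+/Pki/ki over A+/Pwt/wt). They did so within -0.28 to 0.15 for Ccl2, -0.80 to 0.25 for Ccl5 and -1.70 to 0.59 for Cxcl13 in males, and within -0.10 to 2.18 for Cxcl13 in the difference (1.24 with all libraries). In KI cortex they did so within -0.16 to 0.16 for Ccl3, -0.31 to 0.065 for Ccl4, -0.40 to 0.0549 for Ccl12, -0.000203 to 0.0966 for Cxcl14 and -0.0761 to 0.16 for Cxcl16.

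Over all genes, 224 were called for A+/Pwt/wt over A-/Pwt/wt cells, 636 with DESeq2, 726 with the neuron score, 634 without mice 223 and 236, and 91 to 497 with 1 library left out. For A+/Pki/ki the numbers were 286, 956 with DESeq2, 510 with all groups, 647 with the neuron score and 57 to 1097 with 1 left out. For A+/Pki/ki over A+/Pwt/wt cells 0 were called, 7 with DESeq2, and 0 to 1 with 1 left out. In males 2685 were called, 0 with the neuron score, and 894 to 5439 with 1 left out. For the difference 0 were called, 1185 with DESeq2 and up to 6199 with 1 left out. In cortex the KI gave 0, 11 with DESeq2 and 40 without the filter, and the transgene 167, 304 with DESeq2 and 313 without the filter. No paired analysis was possible because the groups compared share no mouse numbers. Cxcl13 and Ccl2 in cortex, and Cxcl13 in some CD11b+ libraries (5 counts in the lowest), rest on few counts, which limits what could be seen.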
